A study of Glycine max with 3 samples.

Results

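The miRNAs described here are 5 families first known from soybean and other legumes: miR1509, miR1511, miR1512, miR1513 and miR1520. They were taken from the known miRNA table by the number in their names, from either arm of the hairpin, with 1 entry kept per distinct mature sequence. This gave 23 distinct sequences from 27 entries, out of 381 distinct sequences in all, and 25 of the 898 pairs of a miRNA and a transcript in the degradome table. The 381 sequences, and the sequences and hairpins set beside the members below, combine the known table with the authors' table of new miRNAs. The choice used no read count, but it was made with earlier results of these data known.

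The plants were vegetable soybean (Glycine max), cultivar Taiwan 75, at the stage of 1 true leaf, and the tissue was leaf. Control plants grew with days at 25 °C and nights at 17 °C, and chilled plants spent 24 h at 4 °C, both with 12 h of light. Each small RNA library pooled leaves of 3 replicates. A degradome library, a survey of the 5′ ends left where messenger RNAs were cut, was made from chilled and control leaves mixed; it is labelled as 10 days after pollination, unlike the other libraries. With 1 library per condition there is no replicate check and no test between conditions, and every ratio below compares those libraries. The distinct sequences together had 3856902 control reads and 5347700 chilled reads.

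A miRNA is cut from the paired stem of a hairpin transcript, and usually 1 arm of the stem is kept in an Argonaute protein while the other is degraded. The kept arm guides the cutting of messenger RNAs that pair with it, and its bases 2 to 8 are called the seed. In plants most miRNAs are 21 nt long. Those of 22 nt can set off the production of secondary small RNAs from the transcript they cut, and small RNAs of 24 nt are mostly tied to DNA methylation.

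The sequences on which the results turn are printed as the authors deposited them, 5′ to 3′ in DNA letters, with the seed in capitals. The first set, shown because its members share or nearly share a seed, holds the 5′ arms of miR1509 and miR1512.
miR1509a: tTAATCAAggaaatcacggtcg
miR1509b: tTAATCAAggaaatcacggttg
miR1512b: tAACTGGAaattcttaaagcat
miR1512a: tAACTGGAaattcttaaagt
miR1512c: tAACTGAAcattcttagagcat

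miR1509b and miR1509a differ by T21C, with the base of miR1509b first and positions counted from 1 at the 5′ end, so they have the same seed. miR1512c and miR1512b differ by A7G, C9A and G17A, of which the first lies in the seed. miR1512a shares its first 19 bases with miR1512b. Within them, base 7, which lies in the seed, is G where the hairpin given for miR1512a has A. The seed that miR1512a shares with miR1512b thus rests on a base not in its hairpin, in a sequence with 1 control and 0 chilled reads. No sequence of another family in the tables has any of the 19 seeds found among the 23 sequences.

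The next set holds both arms of miR1511, whose balance differed between the libraries, and the miR1513 sequences.
MIR1511-p5: gTGGTATCaggtcctgcttca
miR1511: aACCAGGCtctgataccatga
miR1513a-5p: tGAGAGAAagccatgacttac
MIR1513c-p5: aAAGCCATgacttacacacgc
MIR1513b-p5: aAATCATGactttctcttgta

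Names ending in p5 or p3 are the authors', and the sources used here do not define these endings. Among the sequences described here, those ending in p5 lay on the 5′ arm and those in p3 on the 3′ arm. miR1513a-5p and MIR1513c-p5 share a run of 15 bases, placed 6 bases apart in the sequence, and so have different seeds.

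The last set holds the 5 sequences of miR1520 that contain 1 common run of 15 bases, here in capitals in place of the seed.
miR1520d: cAATCAGAACATGACAcgtgacaa
miR1520n: cAATCAGAACATGACAcgtgacag
miR1520m: cAATCAGAACATGACAtgtgacaa
miR1520l: AATCAGAACATGACAcgtgatagt
MIR1520k-p3: ttgacatccAATCAGAACATGACA

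miR1520d, miR1520n and miR1520m have the same seed, while the run starts at base 1 of miR1520l and at base 10 of MIR1520k-p3. Reads of such near-identical sequences can be shared between entries, so values of single miR1520 members are uncertain.

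The families differed in level by orders of magnitude. miR1509a had 29495 reads in control and 48785 in chilled leaves, which placed it at rank 6 and rank 4 of the 381 sequences. miR1511 followed with 1987 and 2552 reads, miR1509b with 1041 and 1201, and MIR1513c-p5 with 482 and 368. These 4 came in the same order in both libraries, and the counting intervals (95%, exact Poisson) of neighbours in that order did not overlap. From the fifth sequence down, the intervals of all neighbours overlapped in both libraries. For a sequence listed at several hairpins, the files do not say if an entry gives the full reads or only part of them. With all entries summed, an alternative chosen after seeing the data, miR1520d came next after those 4 in both libraries, at 157 control reads (133 to 184), clear of the next sequence, and 215 chilled reads. With 1 entry per sequence, these lower levels ran from 78.6 reads of miR1520d to 0.667 of the 3′ arm of miR1512 in the control, and from 175 reads of MIR1520k-p3 to 0 reads of MIR1509b-p3 and miR1512a in the chilled library. No molecular identifiers were used, so all intervals here cover counting error only. They treat the rounded values as independent counts, so for fractional or shared reads they may misstate that error as well.

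**Figure D1:**
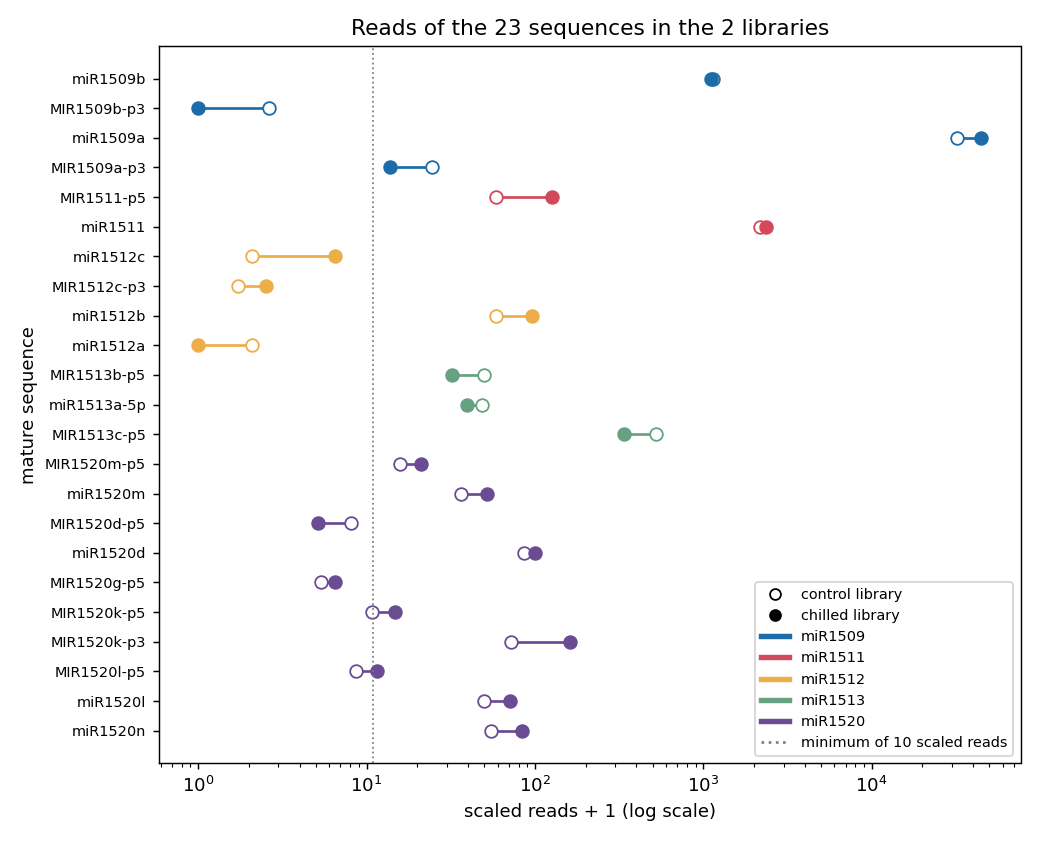
Scaled reads plus 1, on a log axis, of each of the 23 sequences in the control library (open circles) and the chilled library (filled circles), coloured by family; the dotted line marks the minimum of 10 scaled reads. miR1509a lies far to the right of all others, and the miR1513 circles are the only set of a family in which every chilled value is left of the control value.

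Ratios were taken after scaling the libraries to each other with edgeR's trimmed mean of M-values (TMM), with 1 added to each value. Of the 23 sequences, 17 had at least 10 scaled reads in a library. Of these, 2 were at least 2-fold higher in the chilled library, MIR1511-p5 and MIR1520k-p3, against 14.1% of all 213 tested sequences, and 0 were at least 2-fold lower, against 16.4%. Past 2-fold either way were thus 2 of the 17, against 30.5% of all. The other 15 did not reach 2-fold. The median log2 ratio was 0.43 over these 17 sequences and 0.06 over all 213. Of the 17, 8 were miR1520 sequences, which may share reads, so the median weighs that family most. With the libraries set to the same table total, 0 were 2-fold higher and 1 was 2-fold lower, MIR1509a-p3 at -1.03.

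**Figure D2:**
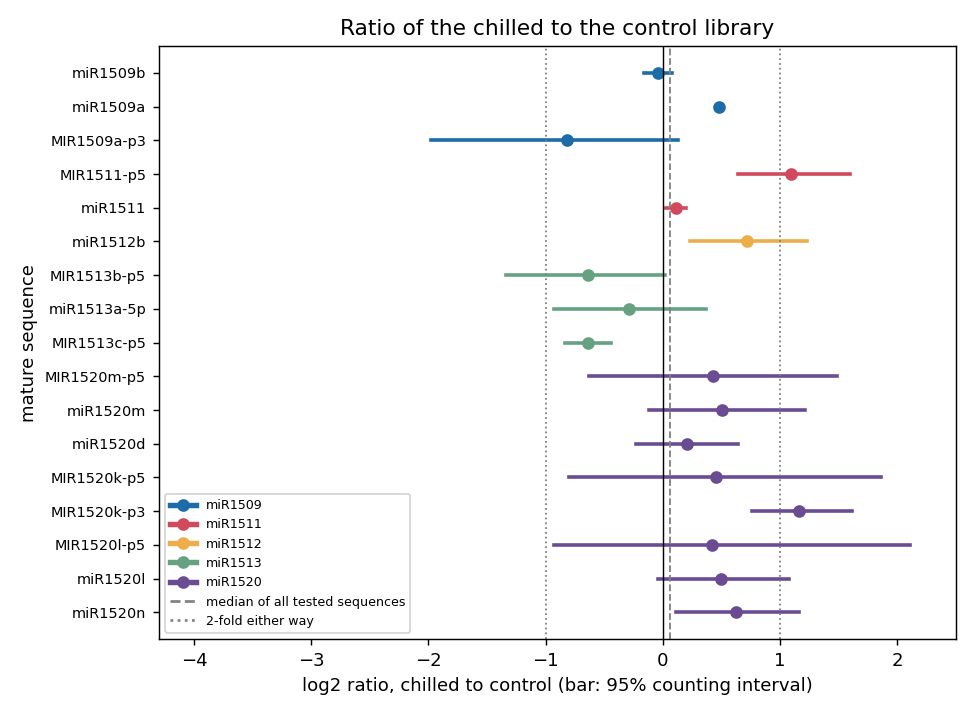
Log2 ratio of chilled to control scaled reads (points) of the 17 sequences with at least 10 scaled reads, with 95% counting intervals (bars), coloured by family; the dashed line is the median of all tested sequences and the dotted lines mark 2-fold. MIR1511-p5 and MIR1520k-p3 lie past the 2-fold line on the right, and the 3 miR1513 points lie left of 0.

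miR1509 is a 22-nt miRNA with plus-strand hairpins on chromosome 17 from 9813056 to 9813166 (miR1509a) and on chromosome 5 from 1350441 to 1350549 (miR1509b). Coordinates are the authors', on a build that the sources used here do not name. The log2 ratio of miR1509a was 0.48 (0.46 to 0.50) and stayed above 0 under each of the 5 scalings run, from 0.25 to 0.73. That of miR1509b was -0.04 (-0.16 to 0.08), and its sign changed between scalings. The balance of these near-identical sequences does not depend on scaling, since both were counted in the same library. Of the reads of both, miR1509b made up 3.41% in control leaves (exact binomial interval 3.21 to 3.62) and 2.40% in chilled leaves (2.27 to 2.54). The odds of a read being miR1509b were thus 0.698 times those in the control (0.641 to 0.760).

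The opposite arms of miR1509 were scarce. MIR1509a-p3 had 21.5 control and 14 chilled reads, a share of 0.0745% (0.0467 to 0.113) and 0.0287% (0.0157 to 0.0481) of the reads of its hairpin's arms. Its odds against miR1509a were 0.385 times those in the control (0.182 to 0.787), while its own log2 ratio, -0.82 (-1.98 to 0.13), had an interval that included 0. MIR1509b-p3 had 1.5 and 0 reads, at or under the floor of 3 reads set here, so no ratio is given.

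miR1511 comes from 1 listed hairpin, on the plus strand of chromosome 18 from 20910835 to 20910933. Its 3′ arm, the named miRNA, had a log2 ratio of 0.11 (0.03 to 0.20), whose sign changed between scalings. Its 5′ arm had 53 reads in control and 136 in chilled leaves, and its log2 ratio was 1.10 (0.65 to 1.60). It was above 0 under each scaling but short of 2-fold at the same table total, at 0.88. Of the reads of both arms, the 5′ arm took 2.60% in control leaves (1.95 to 3.38) and 5.06% in chilled leaves (4.26 to 5.96), intervals that did not overlap. The odds of a read being from the 5′ arm were between 1.44 and 2.81 times those in the control (exact 95% interval), a range that no scaling changes.

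**Figure D3:**
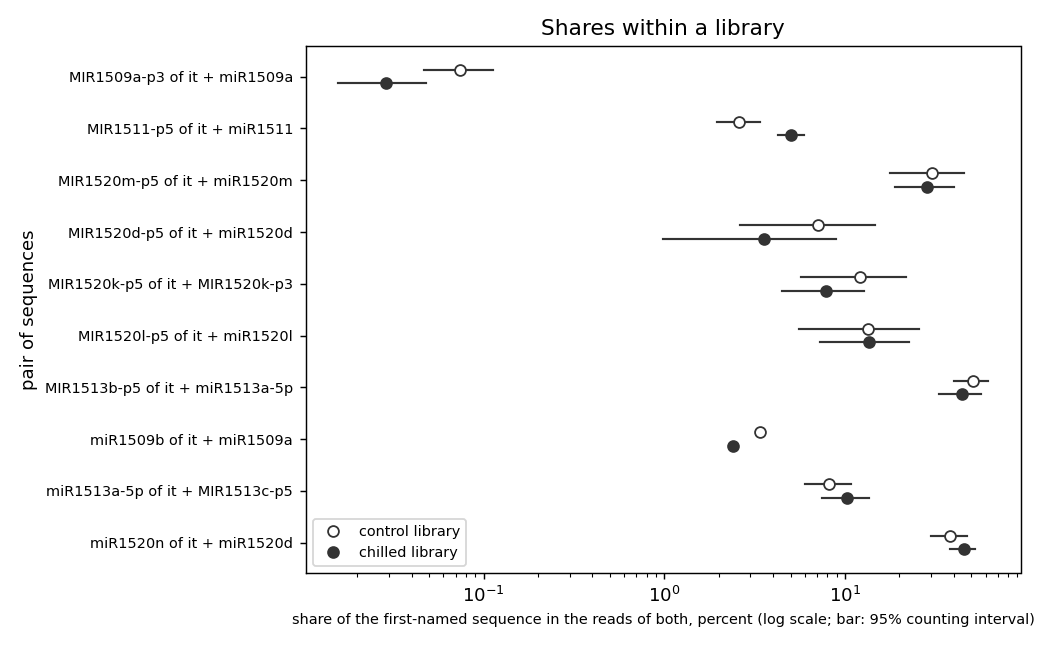
Share, on a log axis in percent, of the first-named sequence of a pair in the reads of both, in the control library (open circles) and the chilled library (filled circles), with 95% exact binomial intervals. The intervals of the libraries are apart for miR1509b and for MIR1511-p5, and overlap for the 8 other pairs drawn.

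miR1512 was carried by 1 sequence, miR1512b, with 53 reads in control and 104 in chilled leaves; its log2 ratio was 0.72 (0.24 to 1.23), above 0 under each scaling. It held 94.6% and 92.9% of the family's reads. miR1512c had 1 and 6 reads, a log2 ratio of 1.64 with an interval from -0.70 to 7.86, and miR1512a had 1 and 0 reads. The hairpins of miR1512b (8707970 to 8708058) and miR1512c (8698923 to 8699026) lie on the minus strand of chromosome 2 with 8943 bases between them, and that of miR1512a lies on chromosome 18. All 3 hairpins list the same 3′ arm sequence, whose reads over all entries came to 2 in control and 3 in chilled leaves.

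miR1513 was the family whose sequences all had ratios below 0. MIR1513c-p5, which held 84.4% of the family's control reads, had a log2 ratio of -0.64 (-0.84 to -0.44). MIR1513b-p5, with 45 and 34 reads, stood at -0.63 (-1.34 to 0.02), and miR1513a-5p, with 43.3 and 42 reads, at -0.28 (-0.93 to 0.37). The sequence of miR1513a-5p is listed both on the 5′ arm of a hairpin on chromosome 7 and on the 3′ arm of a hairpin on chromosome 20. In the latter it faces MIR1513b-p5, which took 51.1% of the reads of both in control leaves (40.2 to 61.9) and 44.7% in chilled leaves (33.3 to 56.6). This balance rests on the 1 entry kept of miR1513a-5p: with both its entries summed, MIR1513b-p5 took 34.1% (26.1 to 42.8) and 28.8% (20.8 to 37.9). The family sum was 1.52-fold lower in the chilled library (log2 -0.61, -0.79 to -0.43).

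All 10 sequences of miR1520 were 24 nt long, against 21 or 22 nt in the other families apart from miR1512a at 20 nt. MIR1520k-p3 had the largest difference, with 65.3 reads in control and 175 in chilled leaves, and its log2 ratio was 1.16 (0.76 to 1.62); at the same table total it was 0.94. The other 7 tested sequences had log2 ratios between 0.20 (miR1520d) and 0.62 (miR1520n, 0.11 to 1.16), and miR1520d turned below 0 at the same table total. Of these 7, all but miR1520n had an interval that included 0. At the same table total the interval of miR1520n included 0 as well (-0.11 to 0.94). MIR1520d-p5, below the minimum with 6.5 and 4.5 reads, was the sequence of the family with a ratio below 0. The family sum was 1.53-fold higher in the chilled library (log2 0.61, 0.41 to 0.81). The 5 sequences with the common run held 87.1% of the family's control reads and 89.5% of its chilled reads. These sequences overlap and may share reads, which was not measured, so their ratios may not be independent of each other.

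The ratios were set beside those of other sequences of the same length. The 8 tested miR1520 sequences had a median log2 ratio of 0.48, and the 18 tested 24-nt sequences of other families one of 0.39, with 13 of the 18 above 0. The 3 tested 22-nt members, miR1509a, miR1509b and miR1512b, had a median of 0.48 against 0.39 over 37 others. The 6 tested 21-nt members had a median of -0.46 against -0.22 over 130 others. Other families with neighbouring miRNA numbers, a list set by number alone, had 2 sequences at least 2-fold higher, 3 lower and 12 neither among 17 tested, and a median of -0.50.

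**Figure D4:**
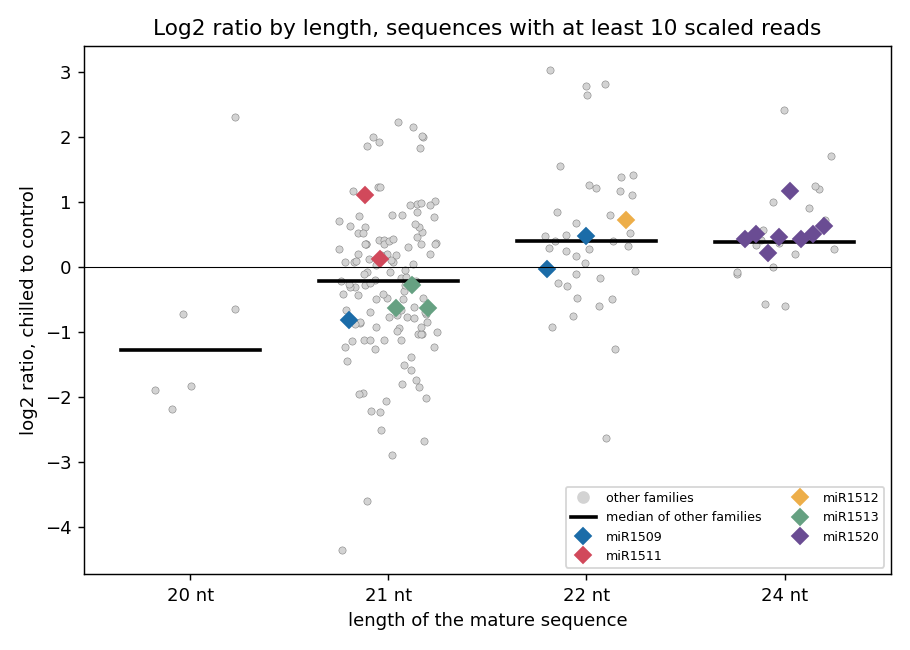
Log2 ratio of chilled to control reads by length of the mature sequence (20, 21, 22 and 24 nt), for sequences with at least 10 scaled reads; grey circles are other families, black lines their medians and coloured diamonds the 5 families. The 8 miR1520 diamonds lie above 0, with MIR1520k-p3 at 1.16 and the other 7 between 0.20 and 0.62, where the median of other 24-nt sequences is 0.39. No counting intervals are drawn.

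The degradome table names transcripts as candidates for cutting by each small RNA. In the authors' deposited table the 25 pairs came from 8 small RNA sequences and 10 gene loci, and no pair of another family fell on those loci. Categories run from 0 to 4, and target callers commonly give 0 to a site that stands above all others of its transcript and 4 to a site with the least read support. Of the 25 pairs, 0 were in category 0 and 2 in category 1, while 33.1% of all 898 pairs were in either; 12 were in category 4, against 29.5% of all. The authors' p-value was under 0.05 for the same 2 pairs, against 15.9% of all. Many of the pairs repeat a site over isoforms of a gene or over names of 1 sequence.

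Both of those pairs belonged to miR1509. In the authors' deposited table miR1509b and miR1509a were paired with position 394 of Glyma.04G195800.1, a transcript with no annotation in the table, in category 1 with an abundance of 163 TPB. The alignment score was 1 for miR1509b and 2 for miR1509a, where lower is the closer match, and the authors' p-values were 0.00263 and 0.00666. The former was the lowest of all 898 pairs. Because both pairs name the same position and abundance, the table does not tell which of the sequences guided a cut there.

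The 8 pairs of miR1513 were all of MIR1513c-p5 and all with transcripts annotated as F-box proteins, which pick the targets of ubiquitin ligases; among the 873 pairs of other families 1 was so annotated. They fell on 4 loci, Glyma.06G197000, Glyma.08G098000, Glyma.08G251800 and Glyma.08G252300. In the authors' deposited table their alignment scores were 1 or 1.5, as close as those of miR1509, but all were in category 4, at 16.3 to 27.1 TPB and with the authors' p-values from 0.597 to 0.738. MIR1513c-p5 was also the member of its family with the most reads in both libraries.

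miR1512 had 11 pairs at 2 loci in the authors' deposited table. The 3′ arm, listed under 3 names, was paired with 3 isoforms of Glyma.18G262900, annotated as SNF1 kinase homolog 10, a kinase that in Arabidopsis senses low energy. These pairs were in category 2, at 112 TPB, a score of 3.5 and the authors' p = 0.726. miR1512a was paired with Glyma.19G207100, a B-box zinc finger protein with a CCT domain, in category 4 at 20.4 TPB (the authors' p = 0.980). Both small RNAs were nearly absent from the small RNA libraries, and miR1512b, which carried the family's reads, had no pair in the table.

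The remaining pairs in the authors' deposited table were single loci. MIR1511-p5, the arm that was higher in the chilled library, was paired with Glyma.08G236000.1, annotated as methionine sulfoxide reductase B 1, an enzyme that repairs oxidised methionine, in category 4 at 81.4 TPB (score 3.5, the authors' p = 0.200). miR1520l was paired with a bHLH transcription factor, Glyma.01G198100, in category 2 at 122 TPB (score 3, the authors' p = 0.305). MIR1520m-p5 was paired with Glyma.01G002000.1, a DUF581 protein, in category 4 at 81.4 TPB (score 4, the authors' p = 0.178). The degradome library mixed both conditions, so it holds no difference between them.

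**Figure D5:**
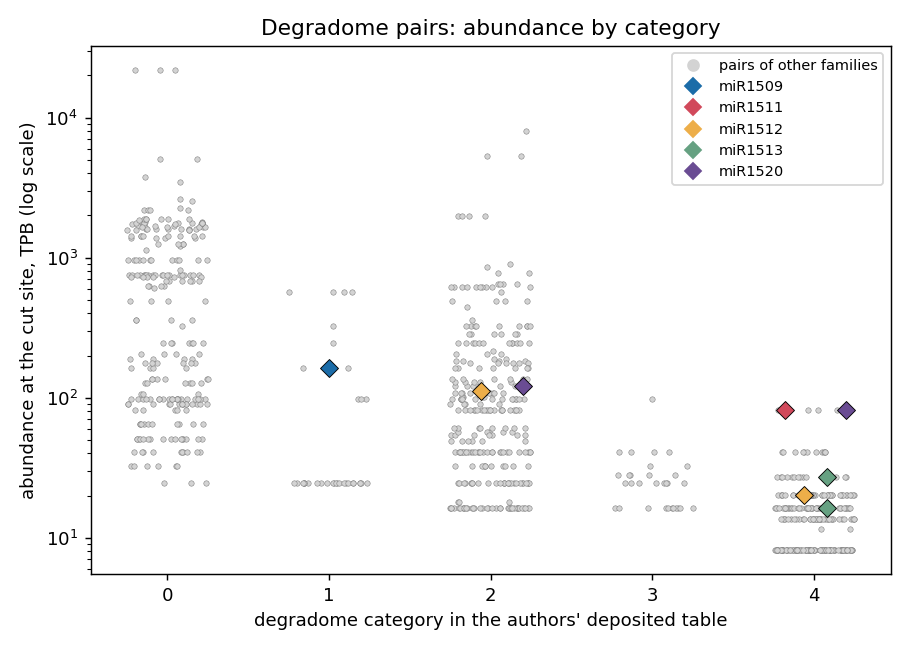
Abundance at the cut site in TPB, on a log axis, by category for all 898 pairs of the authors' deposited table; grey circles are other families and coloured diamonds the 5 families, with pairs of equal category, family and abundance drawn as 1 diamond. The diamonds lie between 16.3 and 163 TPB, with none in category 0.

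The hairpins of these families were compared with those of the tables as a whole. The GC content was 25.3% to 37.5% in the 6 listed miR1520 hairpins and 30.3% to 32.7% in the 3 of miR1512, against a median of 41.4% over 348 hairpins. miR1509 and miR1511 hairpins had 42.2% to 48.6%. The minimal folding energy index, the folding energy adjusted for length and GC content, was 1.2 to 1.7 in miR1512, miR1513 and miR1520 hairpins, and 0.8 to 0.9 in those of miR1509 and miR1511, against a median of 1.

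Of the 23 mature sequences, 16 occur exactly in the hairpin given for them and 7 differ from it by 1 base, 4 of them in miR1520. With the hairpin base first and positions counted from the 5′ end of the miRNA, miR1511 carried G21A, miR1512a A7G, MIR1509b-p3 A20C, miR1520l C21T, MIR1520m-p5 A15G, and both MIR1520d-p5 and MIR1520k-p5 A11G. RefSeq's gene table (Glycine_max_v4.0) holds a gene for each name. It places MIR1520K on chromosome 19 and MIR1520L on chromosome 18, while the hairpins listed for them lie on chromosomes 8 and 12. It lists 18 miR1520 genes, more than the 9 of the other 4 families together.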

How the data were processed

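Small RNA reads of 1 control and 1 chilled library, and a degradome of both kinds of leaves, were taken as deposited. Per the file headers the authors deposited raw reads, not scaled to depth; fractions in 339 of 587 entries mean that the deposited values are treated here like an expected count. The authors also deposited the GC percent, folding energy and folding score of each hairpin, and, for each degradome pair, an abundance signal named TPB, an alignment score, a category and a p-value. The sources used here name no aligner, miRNA caller, target caller or genome build. The copy of the known miRNA table used here had 6 emptied lines, which are not analysed here.

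For each distinct sequence the entry with the most reads was kept. Reads were rounded to whole numbers and the libraries scaled with edgeR 4.0.16 (TMM, R 4.3.3), a log2 offset of 0.25 between chilled and control. Ratios are log2 of scaled reads with a pseudocount of 1. A sequence was tested with at least 10 scaled reads in a library and called at 2-fold. Ratio intervals are exact conditional binomial, share intervals exact binomial and level intervals exact Poisson, at 95% (scipy 1.17.1); odds ratios are conditional estimates with exact intervals. Every sequence and target locus of the 5 families was to be named. Members and lists were chosen with earlier results of these data known. Calls and intervals were tested on simulated independent Poisson reads with a known library scale. That test did not cover variation between replicates, shared or fractional reads, or the estimate of the scale.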

Additional observations from a re-analysis of the deposited data

How the results depend on the processing

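Values are limited by 1 library per condition, by counting error and by the choice of scaling. No paired analysis was possible because each condition has 1 library. Against TMM, DESeq2 1.42.0 size factors lowered log2 ratios by up to about 0.05 and the same table total by up to 0.23. The total without miR3522 and unscaled reads raised them by up to 0.21 and 0.25. Sequences with few reads moved less because of the pseudocount, such as miR1512c from 1.64 to 1.49 at the same table total. Over these scalings 12 of 20 sequences kept a ratio above 0, 5 kept one below 0, and 3 changed sign: miR1509b (-0.26 to 0.21), miR1511 (-0.11 to 0.36) and miR1520d (-0.02 to 0.45). The 20 include sequences below the minimum of 10 scaled reads, and a kept sign says nothing of counting error. With TMM, 10 of the 17 tested sequences had intervals that included equal levels, while 6 intervals lay above 0 and 1 below. With the same table total the count at least 2-fold higher was 0 and the count lower 1. With no minimum the count higher was 3, which added miR1512c with 1 and 6 reads. The count lower was then 2, both sequences with 0 chilled reads. The miR1509 sum stood at 0.41 with DESeq2, 0.24 with the same table total, 0.67 without miR3522 and 0.71 unscaled. For the last 3 of these scalings in that order, the miR1511 sum stood at -0.073, 0.36 and 0.40, the miR1513 sum at -0.83, -0.40 and -0.36, and the miR1520 sum at 0.38, 0.82 and 0.86. Each such move follows from the shift in scale alone. Summing all entries of a sequence or pseudocounts of 0.5 and 5 moved no family sum beyond its interval. Summing entries did move 6 shares beyond theirs: in control and chilled leaves in turn, MIR1513b-p5 to 34.1% and 28.8%, miR1513a-5p beside MIR1513c-p5 to 15.3% and 18.6%, and miR1520n beside miR1520d to 23.8% and 29.5%. Of the 25 degradome pairs, 2 remained in categories 0 and 1 and 2 at an authors' p-value under 0.05.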

Other observations

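Most abundances in the authors' deposited degradome table fell on a grid. No pair in category 4 exceeded 81.4 TPB, and 94.8% of all pairs lay at a whole multiple of a sixtieth of that value (tolerance 0.0001 of a step). On that scale the miR1509 site on Glyma.04G195800.1, with the lowest authors' p-value of the table, stood at 2 units, and the highest pair of the table at 269 units. The sites of MIR1511-p5 and MIR1520m-p5 stood at 1 unit, that of miR1520l at 1.5, and those of MIR1513c-p5 at 0.2 to 0.333. The 9 pairs of the 3′ arm of miR1512 stood at 1.375 units, which is not a whole multiple of a sixtieth, so they lay off the grid. The sources used here do not say how many reads a unit stands for.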
